A study of Sus scrofa with 6 samples.

Results

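The unfolded protein response (UPR) and its chaperones in the endoplasmic reticulum (ER) were examined in pressure-overloaded minipig ventricle through a list of 32 genes, chosen by symbol and divided into sensors and transcription factors of the IRE1-XBP1, PERK-ATF4 and ATF6 arms, ER chaperones, and ER-associated degradation (ERAD). Of the 32 genes, 30 had a row among the 13288 genes of the deposited table, and 29 passed the filter for testing among 11029 genes. RNA came from the ventricles of 3 Tibetan minipigs after sham surgery and 3 after descending aortic constriction (DAC), a narrowing of the descending aorta that raises the load on the left ventricle. The heart tissue was taken 12 weeks after surgery from male animals, whose age is not given in the sources used here. Each minipig gave 1 library, so the spread between samples is that between animals. Sham minipigs carry the replicate numbers 1 to 3, and DAC minipigs 4 to 6.

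The ER folds secreted and membrane proteins, and in muscle it is continuous with the sarcoplasmic reticulum that stores calcium. When unfolded proteins accumulate, the membrane sensors IRE1 (gene ERN1), PERK (EIF2AK3) and ATF6 signal to the nucleus. IRE1 splices the XBP1 transcript, PERK slows translation and favours that of ATF4, and ATF6 is cleaved in the Golgi into a transcription factor. All of these steps act on RNA processing or protein and are not seen in a gene-level measure of transcripts, whereas their target genes, such as the chaperone HSPA5, are known to rise at the transcript level during ER stress.

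Expression was given by the authors as FPKM, the number of fragments corrected for transcript length and for the total of mapped fragments. The groups were compared on log2(FPKM + 1), a scale that understates changes of weakly expressed genes, with limma's moderated test, for genes that reached 1 FPKM in 3 or more of the 6 samples. As in the methods of the study, a differentially expressed gene (DEG) had an unadjusted P under 0.05. By this threshold 8.51% of the 11029 genes were DEGs, 3.25% higher and 5.27% lower in the DAC group, and no gene had an adjusted P under 0.05. The sum of FPKM was between 281377 and 308771 per sample, and how many reads lie behind each value is unknown. Mitochondrially encoded genes took up 24.0%, 25.1% and 25.3% of all FPKM for sham replicates 1 to 3. For DAC replicates 4 to 6 their share was 27.2%, 32.8% and 27.1%. Every DAC minipig thus lay above every sham minipig, and DAC replicate 5 was the highest. This difference was not tested, and results without these genes are given below. Transcripts that define cardiomyocytes were abundant in every sample, with TNNT2 between 3593 and 5915 FPKM. The summed FPKM of 15 fibroblast marker genes was between 618.7 and 697.3 in the sham group and between 848.6 and 991.7 in the DAC group, and these ranges did not overlap. In such bulk tissue, fewer cells of a type and less RNA per cell cannot be told apart.

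The UPR and ER chaperone genes differed little between the groups. Of the 29 tested members, 2 were DEGs, which is 6.90% of them beside 8.51% of all genes tested. Both were lower in the DAC group: XBP1, the transcription factor of the IRE1 arm, and DERL1, a membrane protein of the ERAD channel. None of the 29 members was a DEG with a higher level in the DAC group. The members had a median log2 fold change of -0.052, and the median over all genes tested was -0.016. The mean log2(FPKM + 1) was lower in the DAC group for 18 of the 29 members, and for 53.4% of all genes tested. In 4 members, or 13.8%, the sham and DAC samples did not overlap, a separation seen in 14.9% of all genes tested. CALR was the 1 member with all DAC samples higher, beside 6.01% of all genes, and XBP1, P4HB and DERL1 were the 3 with all DAC samples lower, beside 8.91%. The median absolute log2 fold change was 0.12 in the members and 0.13 over all genes tested. The summed FPKM of the 29 members was between 702.1 and 707.3 in the sham group and between 669.0 and 711.7 in the DAC group.

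**Figure D1:**
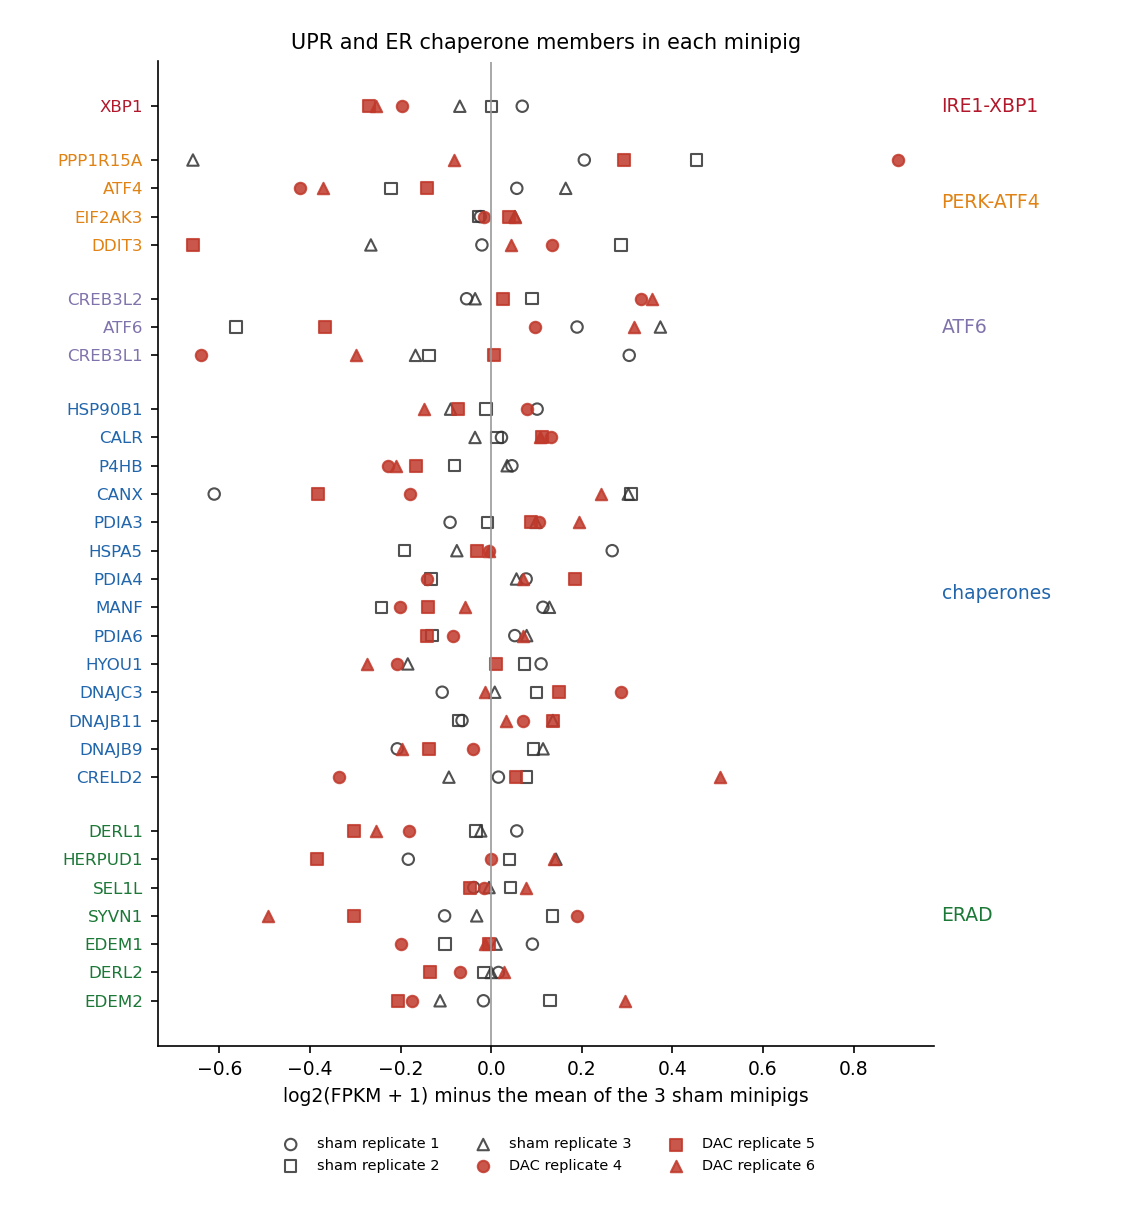
Level of the 29 tested members in each minipig, as log2(FPKM + 1) minus the mean of the 3 sham minipigs. Rows are genes, ordered by sham level within an arm and coloured by arm; open symbols are sham and filled symbols DAC minipigs. The filled symbols lie on one side of the open ones for XBP1, P4HB and DERL1 (lower) and for CALR (higher), while the samples mix for the other 25 members.

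In the IRE1-XBP1 arm, XBP1 (ENSSSCG00000030996, susScr11 chromosome 14 from 46008377 to 46017036, minus strand) was at 18.5, 17.6 and 16.8 FPKM in sham replicates 1 to 3. It was at 15.2, 14.5 and 14.6 FPKM in DAC replicates 4 to 6. Every DAC sample was thus below every sham sample, and the mean fell by 16.3%, from 17.7 ± 0.891 (SD, n = 3) to 14.8 ± 0.419 FPKM (SD, n = 3). For XBP1, the log2 fold change amounted to -0.24 (standard error 0.095, 95% interval -0.47 to -0.016), with an unadjusted P of 0.0388 and an adjusted P of 0.584 from limma. The unadjusted P rose above 0.05 after median scaling (0.0631), after quantile normalization (0.104) and when mitochondrially encoded genes were left out (0.0843). It also did so when sham replicate 1 (0.123), sham replicate 2 (0.0838), sham replicate 3 (0.0528), DAC replicate 5 (0.0834) or DAC replicate 6 (0.0865) was left out. The log2 fold change stayed between -0.28 and -0.19 in all 14 alternatives. These values count all XBP1 transcripts and do not separate the spliced from the unspliced form.

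The IRE1 sensor itself could not be read on its own. No row carried the symbol ERN1, but the gene identifier that is paired with ERN1 in the table of gene names (ENSSSCG00000039909) had a row that the authors listed as ICAM2, an adhesion molecule of endothelial cells. That row spans chromosome 12 from 14881923 to 14997426, and in RefSeq the same stretch holds ERN1 (14881913 to 14963290) followed by ICAM2 (14986636 to 14991639). Its values were 4.95, 5.30 and 5.76 FPKM in the sham samples and 3.77, 3.42 and 4.005 FPKM in the DAC samples, with no overlap. The log2 fold change of this row was -0.42 (standard error 0.11, unadjusted P = 0.00558, adjusted P = 0.482 from limma), and it was a DEG in each of the 13 alternatives that gave a value. The share of its fragments from ERN1 and from ICAM2 is unknown, so it was not counted as a member. Among 14 endothelial marker genes, 4 were lower and 2 were higher DEGs, beside 5.27% and 3.25% of all genes tested, with a median log2 fold change of -0.24 and summed FPKM between 268.0 and 356.6 in the sham and between 225.0 and 318.3 in the DAC group. The part of endothelial transcripts in the lower values of this row was not tested.

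The PERK-ATF4 arm had no DEG among its 4 tested members. EIF2AK3, which encodes the sensor PERK, was the steadiest of them, between 3.21 and 3.45 FPKM in the sham and between 3.24 and 3.45 FPKM in the DAC group. Its log2 fold change was 0.025, with a 95% interval from -0.20 to 0.25. ATF4 (ENSSSCG00000000084, chromosome 5 from 8738880 to 8745225), the transcription factor of amino acid and redox supply downstream of PERK, was at 37.7, 30.9 and 40.7 FPKM in the sham samples and at 26.8, 32.8 and 27.8 FPKM in the DAC samples. DAC replicate 5 lay above sham replicate 2, so the groups overlapped. For ATF4, the log2 fold change amounted to -0.31 (standard error 0.14, 95% interval -0.64 to 0.017), with an unadjusted P of 0.0597 and an adjusted P of 0.595 from limma. ATF4 was a lower DEG in 3 of the 14 alternatives: with sample weights (unadjusted P = 0.0401), without sham replicate 2 (0.0207) and without DAC replicate 5 (0.0333).

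Further down the same arm, DDIT3, which encodes the pro-apoptotic factor CHOP, was weakly expressed. It was at 2.22, 2.98 and 1.72 FPKM in the sham samples and at 2.59, 1.07 and 2.37 FPKM in the DAC samples. The highest and the lowest sample differed 2.79-fold, and the log2 fold change of -0.16 had a 95% interval from -0.73 to 0.41. PPP1R15A (also GADD34), which brings a phosphatase to eIF2 alpha and so restores translation, was at 47.6, 56.7 and 25.7 FPKM in the sham samples and at 77.6, 50.7 and 38.8 FPKM in the DAC samples. It had the widest interval of all tested members, with a log2 fold change of 0.37 and limits of -0.44 and 1.176. TRIB3, a pseudokinase induced by ATF4 and CHOP, did not pass the filter: it was between 0.0376 and 0.402 FPKM in 5 minipigs and at 2.01 FPKM in DAC replicate 6. With no filter, its unadjusted P was 0.347.

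ATF6 (ENSSSCG00000006346, chromosome 4 from 88591280 to 88818372) was at 7.11, 3.81 and 8.21 FPKM in the sham samples and at 6.60, 4.52 and 7.85 FPKM in the DAC samples. The lowest values came from sham replicate 2 and DAC replicate 5, and the spread within the groups was larger than that of 92.3% of all genes tested. The log2 fold change of ATF6 was 0.016 with a 95% interval from -0.64 to 0.67, so a difference of moderate size was not detectable with this spread. Its sign changed in 3 of 14 alternatives, with -0.27 as the lowest and 0.21 as the highest value. CREB3L2 and CREB3L1 encode relatives of ATF6 that are also cleaved in the Golgi and act on secretory pathway and matrix genes. CREB3L2 was at 8.64, 9.66 and 8.77 FPKM in the sham samples and at 11.6, 9.20 and 11.8 FPKM in the DAC samples, where DAC replicate 5 alone lay within the sham range. The log2 fold change of CREB3L2 was 0.24 (standard error 0.12, unadjusted P = 0.0972), and it was a higher DEG without DAC replicate 5 (0.34, unadjusted P = 0.0212). CREB3L1 was at 6.25, 4.34 and 4.23 FPKM in the sham samples and at 2.77, 4.90 and 3.77 FPKM in the DAC samples, a log2 fold change of -0.31 with a 95% interval from -0.79 to 0.17. The summed fibroblast markers, given above, were higher in the DAC group, and their part in the CREB3L1 and CREB3L2 values was not tested.

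Among the chaperones and folding enzymes, none of the 14 tested members was a DEG, and their median log2 fold change was -0.031. Their summed FPKM was 500.4, 503.2 and 517.9 in the sham samples and 495.2, 486.6 and 511.5 in the DAC samples. HSPA5 (ENSSSCG00000005601, chromosome 1 from 265930045 to 265934904) encodes BiP, the ER Hsp70 that keeps the sensors inactive and the usual readout of ER stress. It was at 54.3, 39.3 and 42.6 FPKM in the sham samples and at 44.8, 44.0 and 44.8 FPKM in the DAC samples. All DAC values lay within the sham range, in which sham replicate 1 was high. The log2 fold change of HSPA5 was -0.014 with a 95% interval from -0.33 to 0.31, and its sign changed in 4 of 14 alternatives (0.12 without sham replicate 1). HSP90B1, which encodes the ER Hsp90 GRP94, was the member with the highest mean in the sham group, at 95.5, 88.2 and 83.5 FPKM, and was at 93.9, 84.5 and 80.1 FPKM in the DAC samples. Its log2 fold change was -0.048, with a 95% interval from -0.31 to 0.21.

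**Figure D2:**
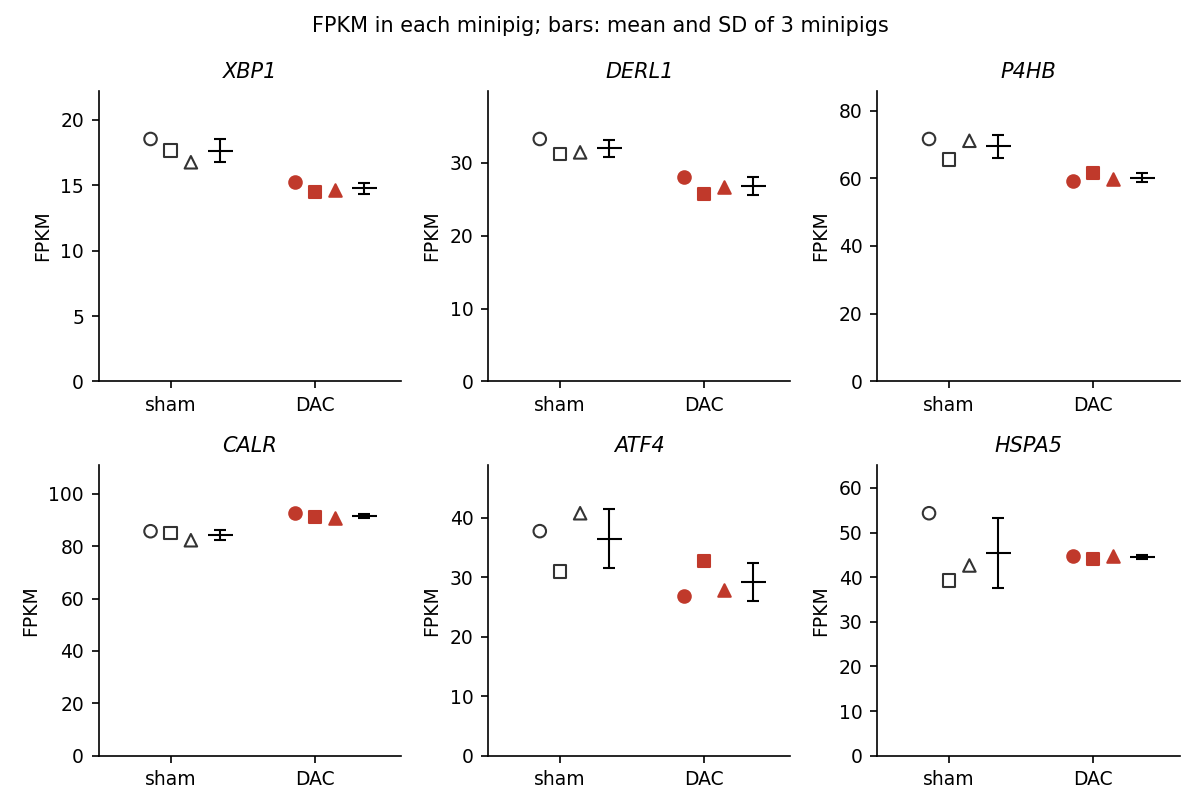
FPKM of XBP1, DERL1, P4HB, CALR, ATF4 and HSPA5 in each of the 3 sham (open) and 3 DAC (filled) minipigs, with the mean and SD of each group beside the points; the vertical axes start at 0. The groups separate for the first 4 genes and overlap for ATF4 and HSPA5, with all DAC values of HSPA5 between 44.0 and 44.8 FPKM.

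CALR and P4HB were the chaperone members whose groups did not overlap, and they lay in opposite directions. CALR (ENSSSCG00000013746, chromosome 2 from 66098225 to 66102340) encodes calreticulin, a calcium-binding lectin chaperone. It was at 85.7, 85.1 and 82.2 FPKM in the sham samples and at 92.6, 91.2 and 90.9 FPKM in the DAC samples. For CALR, the log2 fold change amounted to 0.12 (standard error 0.089, unadjusted P = 0.229, adjusted P = 0.723 from limma). Its spread within the groups was larger than that of only 0.172% of all genes tested, and the moderated test sets such a variance towards those of other genes. When each gene kept its own variance, CALR was a higher DEG (unadjusted P = 0.00398). P4HB (ENSSSCG00000039148, chromosome 12 from 1121793 to 1131291) encodes protein disulfide isomerase, which is also the beta subunit of collagen prolyl 4-hydroxylase. It was at 71.6, 65.5 and 71.1 FPKM in the sham samples and at 59.0, 61.6 and 59.8 FPKM in the DAC samples. For P4HB, the log2 fold change was -0.20 (standard error 0.094, 95% interval -0.42 to 0.020), with an unadjusted P of 0.0686 that became 0.0105 when each gene kept its own variance. Its position overlaps that of MRPL12 on the other strand, and the assignment of reads shared by both genes is not given in the sources used here.

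The other disulfide isomerases had small differences in both directions. PDIA3, the partner of the lectin chaperones for glycoproteins, was at 51.4, 54.5 and 58.8 FPKM in the sham samples and at 59.1, 58.3 and 62.8 FPKM in the DAC samples, with a log2 fold change of 0.13 (95% interval -0.11 to 0.36). PDIA4 and PDIA6 had log2 fold changes of 0.038 and -0.052, and their 95% intervals reached from -0.26 to 0.33 and from -0.32 to 0.21. CANX, which encodes the membrane-bound lectin calnexin, had the largest SD within groups on the log2 scale among the chaperones (0.44). It was at 42.5, 81.3 and 80.9 FPKM in the sham samples and at 57.6, 50.0 and 77.5 FPKM in the DAC samples. Sham replicate 1 was the lowest and 2 sham samples were the highest, and the log2 fold change of -0.11 moved to -0.41 without sham replicate 1. The 2 lectin chaperones differed in this respect, because CALR varied 1.13-fold and CANX 1.91-fold between the highest and the lowest minipig.

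DNAJB9, an XBP1 target that acts with HSPA5, was at 2.40, 3.18 and 3.25 FPKM in the sham samples and at 2.82, 2.57 and 2.42 FPKM in the DAC samples. Its log2 fold change was -0.12, with a 95% interval from -0.42 to 0.17. DNAJB11, matched by its gene identifier because the table gave it no symbol, was between 3.43 and 4.11 FPKM over all 6 minipigs. DNAJC3, an inhibitor of PERK and co-chaperone of HSPA5, had a mean of 7.13 ± 0.586 FPKM (SD, n = 3) in the sham and 7.99 ± 0.930 FPKM (SD, n = 3) after DAC. Its log2 fold change was 0.14, with an unadjusted P of 0.278. HYOU1, the nucleotide exchange factor of HSPA5, had a mean of 12.5 ± 1.46 FPKM (SD, n = 3) in the sham and 11.1 ± 1.28 FPKM (SD, n = 3) after DAC, and its log2 fold change of -0.16 had a 95% interval from -0.46 to 0.15. MANF, a secreted ER protein induced by stress, was at 24.5, 18.9 and 24.7 FPKM in the sham samples and at 19.5, 20.4 and 21.6 FPKM in the DAC samples. CRELD2, another secreted target of the UPR, was between 1.89 and 2.85 FPKM in 5 minipigs and at 4.18 FPKM in DAC replicate 6, the minipig in which TRIB3 was also highest. SDF2L1, a partner of HSPA5, had no row that could be matched by symbol or identifier and was not analysed here.

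**Figure D3:**
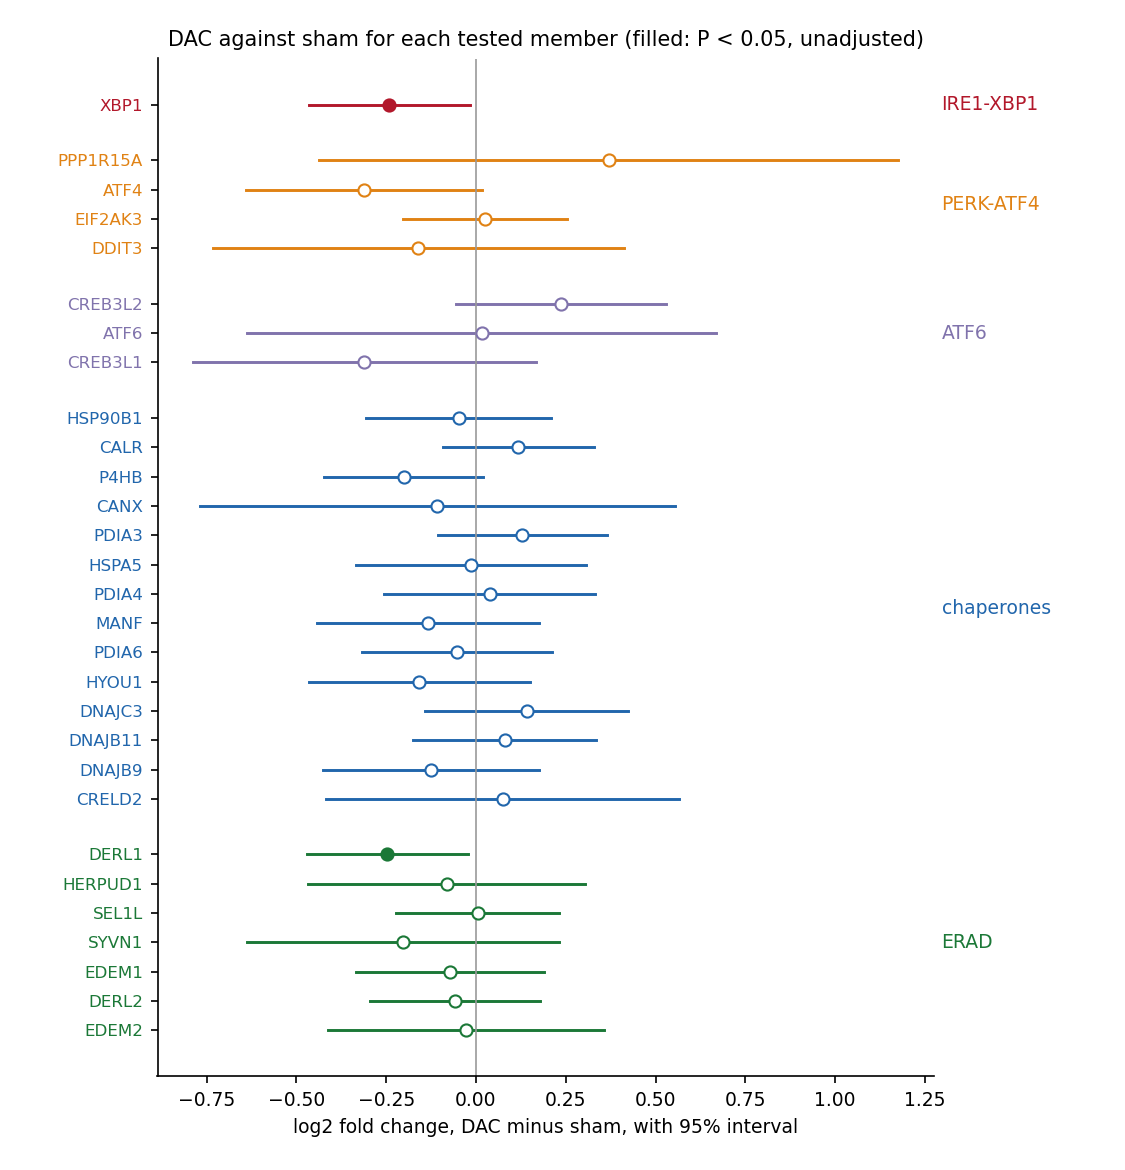
Log2 fold change of DAC against sham for the 29 tested members, with 95% intervals from limma, by arm; filled points have an unadjusted P under 0.05. The intervals of XBP1 and DERL1 lie below 0, the other 27 hold 0, and 20 of the 29 lie within -0.5 and 0.5.

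ERAD returns misfolded proteins to the cytosol for the proteasome. For 6 of its 7 members the mean log2(FPKM + 1) was lower in the DAC group, beside 53.4% of all genes tested. The median log2 fold change of the 7 members was -0.073, and that over all genes tested was -0.016. DERL1 (ENSSSCG00000033690, chromosome 4 from 16310364 to 16346745) was at 33.3, 31.2 and 31.4 FPKM in the sham samples and at 28.1, 25.7 and 26.6 FPKM in the DAC samples. The DAC samples all lay below the sham samples, and the mean fell by 16.2%, from 32.0 ± 1.13 (SD, n = 3) to 26.8 ± 1.19 FPKM (SD, n = 3). For DERL1, the log2 fold change amounted to -0.25 (standard error 0.095, 95% interval -0.47 to -0.023), with an unadjusted P of 0.0350 and an adjusted P of 0.578 from limma. Like that of XBP1, its unadjusted P was above 0.05 after median scaling (0.0537), after quantile normalization (0.107), without mitochondrially encoded genes (0.0772), and without sham replicate 1 (0.110), sham replicate 2 (0.0617), sham replicate 3 (0.0721), DAC replicate 5 (0.0848) or DAC replicate 6 (0.0788). Its log2 fold change was between -0.28 and -0.18 over the 14 alternatives. DERL2, its close relative in the same channel, was expressed at a lower level, at 3.35, 3.25 and 3.30 FPKM in the sham samples and 3.10, 2.91 and 3.39 FPKM in the DAC samples, and its log2 fold change was -0.058 with a 95% interval from -0.30 to 0.18. The fold changes of DERL1 and DERL2 were not tested against each other.

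SEL1L and SYVN1 encode the adaptor and the ubiquitin ligase HRD1 of the main ERAD complex. SEL1L was nearly constant, between 8.66 and 9.22 FPKM in the sham and between 8.60 and 9.45 FPKM in the DAC group, and its log2 fold change of 0.0044 had a 95% interval from -0.22 to 0.23. SYVN1 was at 7.93, 9.54 and 8.38 FPKM in the sham samples and at 9.94, 6.77 and 5.82 FPKM in the DAC samples, so DAC replicate 4 was the highest and the other DAC samples the lowest of all. Its log2 fold change was -0.20, and without DAC replicate 4 it was -0.40 and SYVN1 became a lower DEG (unadjusted P = 0.0229). The row of SYVN1 (chromosome 2 from 7059462 to 7072809) overlaps that of the ribosomal fusion gene FAU on the same strand, and CAPN1 and MRPL49 on the other. In RefSeq, SYVN1 (7059444 to 7066617) and FAU (7070903 to 7072811) lie apart within this stretch. FAU had its own row, at 54.1 to 59.4 FPKM in the sham and 41.6 to 54.8 FPKM in the DAC samples. The share of fragments in the SYVN1 row that come from SYVN1 is unknown, although it was counted as a member. HERPUD1, a stress-induced organiser of the complex, was at 11.9, 14.1 and 15.2 FPKM in the sham samples and at 13.6, 10.2 and 15.1 FPKM in the DAC samples, a log2 fold change of -0.082 with a 95% interval from -0.47 to 0.30. EDEM1 and EDEM2, which trim mannose from glycoproteins marked for degradation, had log2 fold changes of -0.073 and -0.029.

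The SD within groups on the log2 scale had a median of 0.14 in the members and 0.18 over all genes tested, and 10 of the 29 members were above the latter. PPP1R15A (0.54), CANX (0.44), ATF6 (0.43) and DDIT3 (0.36) varied most, and CALR (0.024), EIF2AK3 (0.041), SEL1L (0.054) and P4HB (0.054) varied least. XBP1 and DERL1, the DEGs, each had an SD of 0.056, which was larger than that of fewer than 3% of all genes tested. Both calls went with a small spread, at log2 fold changes of -0.24 and -0.25, whereas PPP1R15A, ATF4 and CREB3L1 had larger log2 fold changes in size and were not DEGs. No minipig held most of the extremes: sham replicate 1 was the highest in 8 members and DAC replicate 5 the lowest in 8 members, and 19.2% and 23.6% of all genes tested had their highest and lowest values in these samples.

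**Figure D4:**
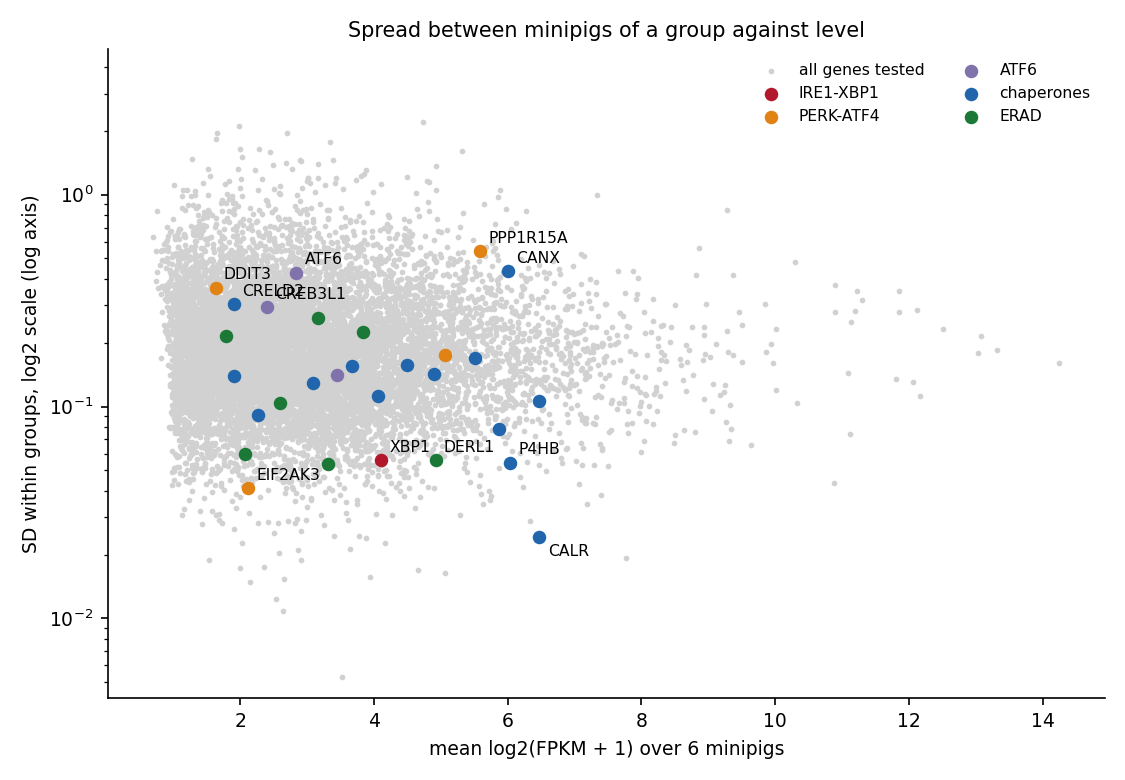
SD within groups on the log2 scale (vertical log axis) against mean log2(FPKM + 1) over the 6 minipigs, for all 11029 genes tested (grey) and the 29 members (coloured by arm). CALR, EIF2AK3, XBP1, DERL1 and P4HB lie at the lower edge of the cloud, and PPP1R15A and CANX lie high for their level.

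Other genes of the pathway were read from hand-written lists. Among 16 tested targets of ATF4 and CHOP, 3 fell and 1 rose, beside 5.27% lower and 3.25% higher DEGs over all genes tested. DDIT4, an inhibitor of mTORC1, was at 83.1, 90.1 and 78.1 FPKM in the sham samples and at 53.0, 46.2 and 45.0 FPKM in the DAC samples, a log2 fold change of -0.79 (adjusted P = 0.222 from limma). CEBPB, a transcription factor that pairs with ATF4 and CHOP, was at 91.9, 86.7 and 77.9 FPKM in the sham samples and at 68.8, 40.8 and 52.3 FPKM in the DAC samples, a log2 fold change of -0.68. Both genes were lower DEGs in all 14 alternatives, while ATF5 (-0.57) was one in 9 of 14. MTHFD2, a mitochondrial folate enzyme and the gene that rose, was at 0.754, 0.719 and 0.805 FPKM in the sham samples and at 1.04, 1.86 and 1.07 FPKM in the DAC samples. It passed the filter of 1 FPKM only through its 3 DAC samples, so its call is a description, and it was a higher DEG in 7 of 13 alternatives. DDIT4 and CEBPB also respond to signals other than ATF4, and what set their levels was not tested.

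Of 15 other tested genes of UPR signalling, 1 was a DEG, which is 6.67% of them beside 8.51% of all genes tested. This gene was TRAF2, the adaptor that links IRE1 to kinase signalling. It was at 6.86, 5.74 and 6.79 FPKM in the sham samples and at 4.54, 4.78 and 4.70 FPKM in the DAC samples, with a log2 fold change of -0.39 (unadjusted P = 0.00756, adjusted P = 0.5001 from limma), and it was a lower DEG in all 14 alternatives. The 20 tested genes of oxidative and glycoprotein folding held 1 DEG, which is 5.0% beside 8.51% of all genes tested. This gene was the disulfide isomerase TXNDC5, at 15.5, 16.6 and 14.01 FPKM in the sham and at 16.8, 20.3 and 19.7 FPKM in the DAC samples. Its log2 fold change was 0.28, and it was a higher DEG in 9 of 14 alternatives. Of 27 tested genes of protein translocation and N-glycosylation, 3 were DEGs, which is 11.1% beside 8.51% of all genes tested. SSR2, a subunit of the translocon-associated complex, was at 127.8, 128.5 and 127.0 FPKM in the sham samples and at 74.3, 81.7 and 96.9 FPKM in the DAC samples. For SSR2, the log2 fold change amounted to -0.60 (standard error 0.12, unadjusted P = 0.00150, adjusted P = 0.379 from limma), and it was a lower DEG in all 14 alternatives. SERP1, a stress-associated translocon protein, fell with a log2 fold change of -0.33, and STT3B, a catalytic subunit of the oligosaccharyltransferase, rose with one of 0.24. They were DEGs in 10 and 8 of the 14 alternatives. The mean log2(FPKM + 1) was lower in the DAC group for 6 of the 15 UPR signalling genes, beside 53.4% of all genes tested. It was lower for 12 of the 16 targets of ATF4 and CHOP and 11 of the 20 folding genes. The same held for 11 of the 27 genes of translocation and N-glycosylation. Of 24 other tested ERAD genes, it was lower for 18. The VCP cofactor UFD1 was the 1 DEG among them, which is 4.17% beside 8.51% of all genes tested. Its log2 fold change was -0.29, and it was a lower DEG in 5 of 14 alternatives.

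Outside the ER, the 23 tested cytosolic chaperone genes held 1 DEG, a higher one, which is 4.35% beside 8.51% of all genes tested. Their median log2 fold change was -0.0006. The 12 tested mitochondrial chaperones and proteases held 1 DEG, a lower one, which is 8.33% beside 8.51% of all genes tested. Their median was -0.080. These medians were not tested against that of the ER members.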

How the data were processed

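The authors deposited 1 table of FPKM for 13288 genes of at least 0.5 FPKM in their highest sample, with a column for each minipig. Total RNA libraries (NEBNext Ultra) were read from both ends on a HiSeq instrument. The submitters' processing notes name HISAT2 and the build susScr11. The program that made the FPKM and its handling of shared reads are not given in the sources used here, so strand and overlap could affect the 6 tested members whose position overlaps another listed gene. Depth is unknown, and precision rests on the spread between minipigs.

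Members were matched by symbol, and rows without a symbol by gene identifier (519 rows gained a symbol). All 30 members with a row lay at the RefSeq gene of that symbol on Sscrofa11.1. Values were fitted as log2(FPKM + 1), thus with a pseudocount of 1, with limma 3.58.1 (moderated test with a variance trend, R 4.3.3), with P adjusted over all genes tested by Benjamini-Hochberg; figures used Python 3.11.15 and matplotlib 3.10.9. Intervals are 95% intervals of the moderated fit. An exact two-sided permutation test of 3 against 3 minipigs cannot give a P under 0.10. The fit was tested on simulated data. Members and lists were chosen with earlier results of these data known. All members are described, and of each other ER list the DEGs are named, at most 4 by P. The alternatives tried concerned the filter (none, or 5 FPKM), the scaling (by medians, by quantiles, or without mitochondrially encoded genes), the pseudocount (0.1), the variance (separate for each gene, or with sample weights) and the samples (each minipig left out in turn).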

Additional observations from a re-analysis of the deposited data

How the results depend on the processing

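No member that was a DEG under any setting changed direction. The sign was the same in every alternative that gave a value (13 or 14) for 19 of the 29 members and changed in at least 1 for the other 10, none of them a DEG. The members held 2 lower DEGs. Median scaling, quantile normalization and leaving out mitochondrially encoded genes each gave 0. With 1 minipig left out the number was between 0 (without sham replicate 1, sham replicate 3 or DAC replicate 6) and 3 (without DAC replicate 4, which added SYVN1). Leaving out sham replicate 2 or DAC replicate 5 gave 1, which was ATF4 in both cases. Neither XBP1 nor DERL1 was a DEG in these 2 alternatives. The number was also 3 with a separate variance for each gene, which added P4HB, and with sample weights, which added ATF4. Counting the row listed as ICAM2 as ERN1, an alternative chosen after seeing the data, gave 3 as well. Higher DEGs numbered 0 among the members, 1 (CALR) with a separate variance for each gene, and between 0 and 1 with 1 minipig left out (CREB3L2, without DAC replicate 5). The members' median log2 fold change of -0.052 was -0.020 with quantile normalization, -0.010 without mitochondrially encoded genes, and between -0.10 (without DAC replicate 6) and -0.0050 (without DAC replicate 5) with 1 minipig left out. For the PERK-ATF4 arm, the median of -0.067 was 0.025 with no filter, which adds TRIB3, 0.029 with a minimum of 5 FPKM, which leaves 2 genes, and between -0.13 (without DAC replicate 6) and 0.054 (without DAC replicate 5) with 1 minipig left out. For the ATF6 arm it was 0.016, and between -0.27 (without sham replicate 2) and 0.21 (without DAC replicate 5). For the chaperones it was -0.031, 0.025 with quantile normalization, 0.013 without mitochondrially encoded genes, and between -0.053 (without DAC replicate 6) and 0.025 (without sham replicate 1). Over all genes, a minimum of 5 FPKM left 165 higher DEGs in place of 358. With 1 minipig left out there were between 241 and 470 higher DEGs, and between 359 (without sham replicate 1) and 674 lower ones in place of 581. Lower genes made up 61.9% of all DEGs, 52.0% with median scaling and 44.9% without mitochondrially encoded genes. Apart from the changes in which genes or samples enter, the causes were not tested. The paper assigned minipigs to the groups at random and names no pairs, so the groups were compared as separate animals.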
